A study of Mus musculus with 16 samples.

Results

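The line titled NOD EpiSC-like iPS #6, an induced pluripotent stem (iPS) line from NOD mice, was compared with embryonic stem (ES) cells of the same strain. Its members were chosen by title: 2 arrays of iPS line 6, at passage 7 and passage 12, set against the 3 arrays titled NOD-ES 4K, NOD ES 43 KP/CH and NOD ES 85 KP, so 5 of the 16 arrays of the series. The study profiled total RNA of NOD and non-NOD mouse pluripotent lines on 1-colour whole-genome microarrays, to describe how NOD lines move between the ES state and a state like that of epiblast stem cells (EpiSC). Every comparison was made both with NOD-ES 4K and without it, because the label of that array is doubtful. Other arrays used here were the NOD EpiSC-like ES line 1 at passages 5, 7, 9 and 10, EpiSC of a strain given only as non-NOD at passages 12 and 20, and a pair of arrays of non-NOD 129 ES cells at passage 8 whose titles carry the tag mESM. The labels list no treatment for any of these groups, and passages of the NOD ES arrays, the way line 6 was reprogrammed, and the meaning of 4K, KP, KP/CH and mESM are not stated in the sources used here. By the protocols in the labels, feeder cells were removed from ES cultures by preplating on gelatin, whereas EpiSC-like colonies were picked mechanically, so state and harvest cannot be told apart. Line 6 is 1 line sampled at 2 passages. Each p-value reflects only the spread among arrays, which may be technical.

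ES cells stand for the naive epiblast before implantation. They keep their state through LIF-STAT3 signalling and a network of factors around Pou5f1 (Oct4), Sox2, Nanog and Esrrb. EpiSC come from the epiblast after implantation. They keep Pou5f1 and Sox2, lose the naive factors, gain primed genes such as Fgf5, Otx2 and T, and depend on FGF and on Nodal or activin. NOD mice are a strain from which ES cells have been hard to derive, and their lines have been described as unstable between these states.

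Levels below are log2 processed signals minus the 75th percentile of their array, so 0 is that percentile. They compare arrays and not genes. They are listed as passage 7 then passage 12 for the iPS line, and as NOD-ES 4K, NOD ES 43 KP/CH then NOD ES 85 KP for NOD ES. The mark (dim) stands for a spot not well above background. A difference is the iPS mean minus the NOD ES mean on the log2 scale with its standard error (SE), and a gene was called at an adjusted p under 0.05 (limma, Benjamini-Hochberg over 23167 genes). Where every probe of a gene was dim on 1 side, the fold is a lower bound, "at least N-fold", measured against the faintest signal that counted as well above background there. The NOD-ES 4K array stood apart from its group. Only 26.3% of its gene spots were well above background, against 67.4% and 71.9% on the other NOD ES arrays and 69.4% and 65.2% on the iPS arrays. Over genes well above background on both arrays, the SD of its log2 differences was 1.09 and 1.11 from the other NOD ES arrays and 0.668 from the array titled iPS_EpiSC 3M. The SD was 0.287 between NOD ES 43 KP/CH and NOD ES 85 KP and 0.606 between the iPS passages. No slide held an iPS and a NOD ES array, so slide and group cannot be told apart by a direct comparison within a slide.

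The iPS line differed from NOD ES across a large part of the transcriptome. With all 5 arrays 7694 genes were called (33.2%), 3646 higher (15.7%) and 4048 lower (17.5%) in the iPS line. Without NOD-ES 4K 9637 were called (41.6%), 4709 higher (20.3%) and 4928 lower (21.3%). Higher genes were 47.4% of those called and 48.9% without NOD-ES 4K, against 57.6% and 62.6% when the arrays were scaled on probes well above background on all arrays. In all, 7335 genes were called in the same direction both ways and 0 in opposite directions. Both iPS arrays lay above all 3 NOD ES arrays for 5553 genes (24%) and below all 3 for 5672 (24.5%). The median difference of all tested genes was -0.04 with NOD-ES 4K and 0.21 without it, and each list median below is read beside these. With and without NOD-ES 4K, the lowest list medians were those of naive ES markers and the pluripotency core, and the highest those of glial and secretory granule genes, macrophage genes and endoderm genes. The glial list was assembled from genes that led earlier comparisons of these arrays, so its rank is not independent evidence. With slide as a fixed block, which links the groups only through the EpiSC-like ES line, 3782 genes were called. In that fit the slide terms took up the passage 12 array, which was alone on its slide. They also took up NOD-ES 4K, whose slide otherwise held only the iPS_EpiSC arrays, a group on no other slide. The iPS contrast in this setting, here and below, thus set passage 7 against NOD ES 43 KP/CH and NOD ES 85 KP. Its differences with and without NOD-ES 4K are the same by construction, so their agreement is no check. The medians under that block were -5.31 for naive ES markers, -3.79 for the core, 4.95 for glial genes, 3.70 for macrophage genes and 3.16 for endoderm genes. In total RNA from a culture, fewer cells of a type and less RNA per cell cannot be told apart.

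**Figure D1:**
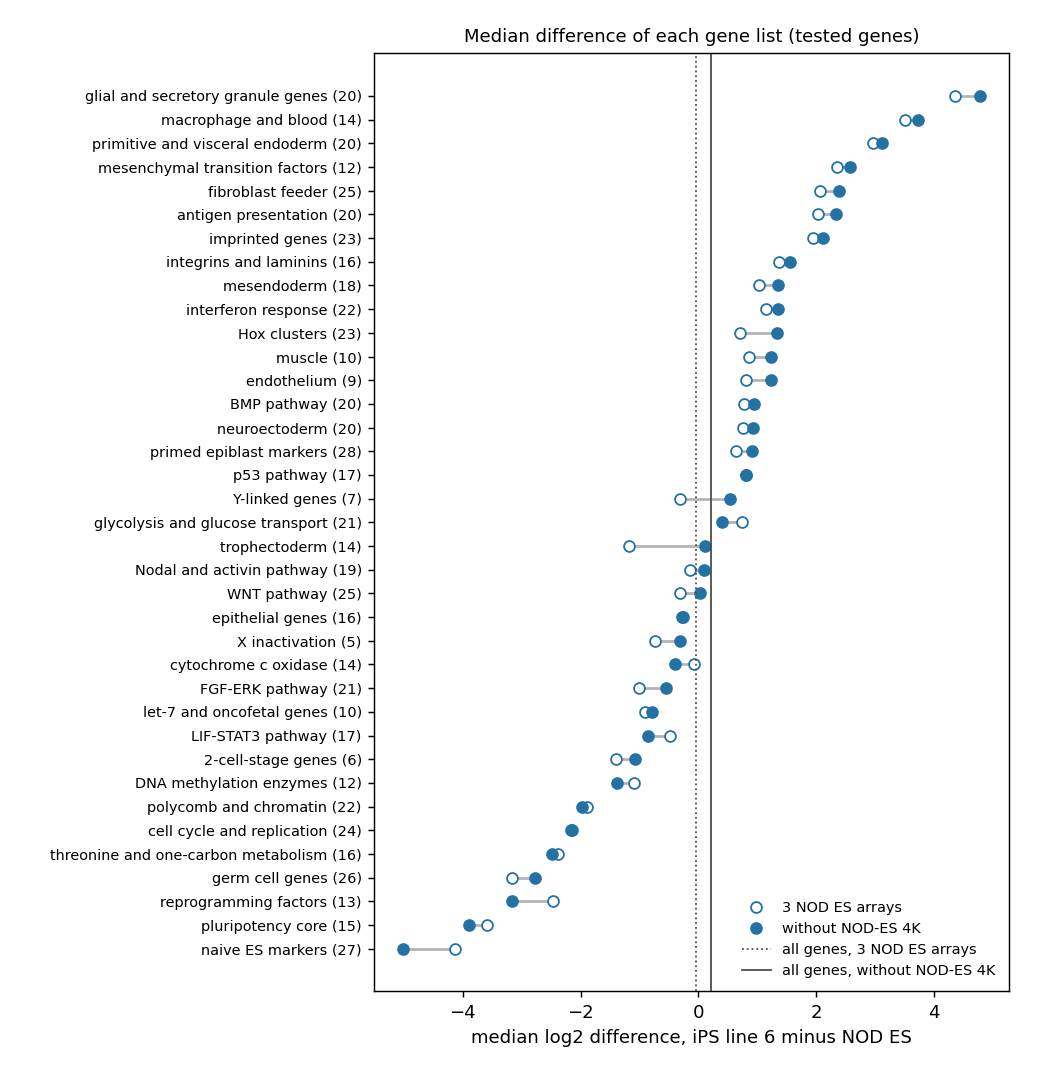
Median log2 difference of iPS line 6 minus NOD ES for each of 37 gene lists (number of tested genes in brackets), with all 3 NOD ES arrays (open circles) and without NOD-ES 4K (filled circles). The vertical lines are the medians of all 23167 genes, -0.04 (dotted) and 0.21 (solid). Naive ES markers lie at -4.13 and -5.01, and glial and secretory granule genes at 4.35 and 4.78. The glial list was assembled from genes that led earlier comparisons of these arrays.

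The pluripotency core was lower in the iPS line, and the level of Pou5f1 goes against the label EpiSC-like. Of 15 core genes tested, 0 were higher and 14 lower in the iPS line, with a median difference of -3.59. Of the same core genes, 0 were higher and 15 lower without NOD-ES 4K, with a median of -3.90. Pou5f1, which encodes Oct4 and marks naive and primed cells alike, stood at -4.34 (dim) and -3.32 in the iPS line and 2.26, 4.44 and 3.77 in NOD ES. It fell by 7.32 ± 0.72 (adjusted p = 2.14e-05), or fell by 7.93 ± 0.67 (adjusted p = 9.21e-06) without NOD-ES 4K. The homeobox gene Nanog read -2.49 and -2.28 in the iPS line and 0.63, 3.85 and 3.90 in NOD ES. Nanog fell by 5.18 ± 0.92 (adjusted p = 0.00117), or fell by 6.26 ± 0.65 (adjusted p = 3.45e-05) without NOD-ES 4K. Sox2, the partner of Oct4 on DNA, read 0.06 and 0.07 in the iPS line and 2.09, 3.80 and 3.70 in NOD ES. It fell by 3.13 ± 0.62 (adjusted p = 0.0024), or fell by 3.68 ± 0.57 (adjusted p = 0.000424) without NOD-ES 4K. For these 3 factors both iPS arrays lay below all NOD ES arrays, and NOD-ES 4K was the lowest of the NOD ES arrays. Sox2 was not called with slide as a fixed block. Core genes called lower numbered 9 with slide as a fixed block, with or without NOD-ES 4K.

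Other core genes showed the same separation with a tighter NOD ES group. Dppa4, a chromatin factor of early embryos and germ cells, read -6.52 (dim) and -5.68 (dim) in the iPS line and 3.38, 3.48 and 3.51 in NOD ES, nearly level across NOD ES. Dppa4 was at least 219-fold lower (adjusted p = 1.62e-05), or at least 225-fold without NOD-ES 4K (adjusted p = 4.07e-05). Alpl, the alkaline phosphatase used to stain stem cell colonies, read -3.11 and -3.59 (dim) in the iPS line and 3.43, 4.22 and 3.96 in NOD ES. It fell by 7.22 ± 0.25 (adjusted p = 4.12e-08), or fell by 7.44 ± 0.21 (adjusted p = 2.56e-08) without NOD-ES 4K. The zinc finger gene Sall4 fell by 3.68 ± 0.57 (-4.27 ± 0.46 without NOD-ES 4K) and the let-7 antagonist Lin28a fell by 2.47 ± 0.23, with no overlap of their groups. Sall4 depended on the probe. Its other probe averaged 1.66 in the iPS line and 1.36 in NOD ES, a difference of 0.30. Tdgf1 (Cripto), a co-receptor for Nodal, fell by 4.17 ± 0.60. Over the 5 shared pluripotency markers the mean level was -1.61 and -1.50 on the iPS arrays and 1.59, 3.48 and 3.33 on the NOD ES arrays. Pou5f1 was dim at passage 7 and low at passage 12, which goes against the word pluripotent as much as against EpiSC-like, so iPS line is kept here only as the name on the labels. Reprogramming factors gave 2 higher and 8 lower of 13 (median -2.47; without NOD-ES 4K 1 and 10, median -3.17), among them Mycn, which fell by 3.55 ± 0.30. Sall4 and Tdgf1 were not called with slide as a fixed block.

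Most naive ES genes were lower in the iPS line at both passages. Of 27 naive markers tested, 2 were higher and 23 lower in the iPS line, with a median difference of -4.13 (-3.41 with genes at their bound). Of the same naive markers, 1 was higher and 24 lower without NOD-ES 4K, with a median of -5.01 (-3.89 at the bound). Zfp42 (Rex1), a zinc finger gene used as a naive marker, read -4.10 (dim) and -3.88 (dim) in the iPS line and 4.85, 5.68 and 5.58 in NOD ES. Zfp42 was at least 650-fold lower (adjusted p = 2.24e-05), or at least 779-fold without NOD-ES 4K (adjusted p = 4.4e-05). Dppa5a, an RNA-binding protein gene of ES cells, read -0.34 and 0.04 in the iPS line and 8.89, 9.35 and 9.27 in NOD ES. It fell by 9.32 ± 0.21 (adjusted p = 8.44e-10), or fell by 9.46 ± 0.19 (adjusted p = 2.24e-09) without NOD-ES 4K. Tdh, the threonine dehydrogenase on which mouse ES cells depend, read -2.04 and -1.38 in the iPS line and 6.62, 7.83 and 7.85 in NOD ES. It fell by 9.15 ± 0.45 (adjusted p = 3.81e-07), or fell by 9.56 ± 0.40 (adjusted p = 2.29e-07) without NOD-ES 4K. Both were above background in the iPS line and far above it in NOD ES, without overlap. The number of naive markers lower was 15 without the passage 7 array, NOD ES 43 KP/CH or NOD ES 85 KP and 14 without the passage 12 array. Naive markers called lower numbered 15 with slide as a fixed block, with or without NOD-ES 4K.

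Nuclear receptors of the naive network followed. Nr0b1 (Dax1), on the X chromosome, read -6.16 (dim) and -5.38 (dim) in the iPS line and 1.80, 4.15 and 4.24 in NOD ES. Nr0b1 was at least 210-fold lower (adjusted p = 2.44e-05), or at least 366-fold without NOD-ES 4K (adjusted p = 1.01e-05). Esrrb read -4.67 (dim) and -5.47 (dim) in the iPS line and 2.55, 5.04 and 5.08 in NOD ES. It fell by 9.30 ± 0.97 (adjusted p = 3.27e-05), or fell by 10.14 ± 0.91 (adjusted p = 1.34e-05) without NOD-ES 4K, a size set by dim iPS spots of this probe, while another Esrrb probe was above background. Nr5a2 fell by 7.44 ± 0.66 and the F-box gene Fbxo15, an Oct4 target, fell by 6.69 ± 0.69 (-7.54 ± 0.43 without NOD-ES 4K). Tbx3, a T-box factor downstream of LIF, fell by 4.42 ± 0.84 (-5.41 ± 0.57 without NOD-ES 4K). Morc1, a repressor of retrotransposons, was at least 155-fold lower (adjusted p = 2.02e-05), or at least 261-fold without NOD-ES 4K (adjusted p = 6.02e-06). Tfcp2l1, a STAT3 target, read 0.06 and 0.02 in the iPS line and 1.17, 5.68 and 5.66 in NOD ES, with NOD-ES 4K between the iPS line and the other NOD ES arrays. It fell by 4.13 ± 1.22 (adjusted p = 0.0216), or fell by 5.63 ± 0.78 (adjusted p = 0.00022) without NOD-ES 4K. Klf4 read 4.80 and 4.78 in the iPS line and 4.76, 7.65 and 7.58 in NOD ES, so that NOD-ES 4K lay at the iPS level. Its difference was -1.88 ± 0.74 (adjusted p = 0.0745) with all arrays and -2.83 ± 0.42 (adjusted p = 0.000321) without NOD-ES 4K. Klf2 depended on the probe, with differences of -5.61 and 1.27 for its probes, and Spp1 (osteopontin), which macrophages also express, rose by 2.84 ± 0.41 against the direction of the list. With 1 array left out, the test was lost for Tfcp2l1 without any 1 of the remaining arrays (-4.15 to -3.37, adjusted p between 0.0731 and 0.0993). Tfcp2l1 was not called with slide as a fixed block, when only the 5 arrays were fitted or with the passages averaged. Spp1 was not called with slide as a fixed block. Tbx3 was not called when only the 5 arrays were fitted.

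**Figure D2:**
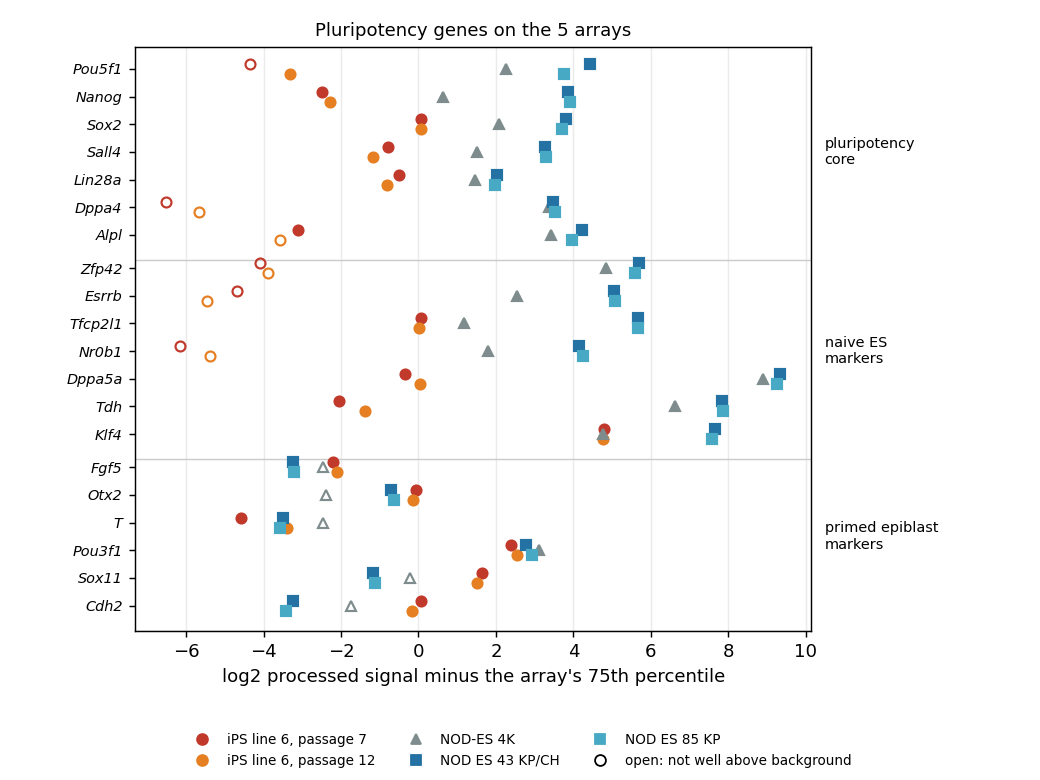
Levels of 20 pluripotency genes on the 5 arrays (log2 processed signal minus the 75th percentile of the array), grouped into the core, naive ES markers and primed epiblast markers. Circles are iPS line 6, the triangle is NOD-ES 4K, squares are the other NOD ES arrays, and open symbols are spots not well above background. The core and naive genes other than Klf4 lie to the left in the iPS line (Dppa5a -0.34 and 0.04 against 8.89 to 9.35). For Klf4, NOD-ES 4K lies at the iPS level. Pou3f1 lies close together on all 5 arrays, and for T the iPS and NOD ES arrays overlap.

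Genes of the germ line that ES cells also express were lower in the iPS line. Many of them are switched off by promoter methylation in somatic cells, and their promoters often hold an E-box, CACGTG, or an E2F6-type site, TCCCGC. Promoters of a pair of called genes are shown so that these letters can be seen in place. They are RefSeq sequences (GRCm38.p6) from 250 bases before to 50 bases after the start, and capitals mark TCCCGC or CACGTG on either strand.

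Tex19.1, chr11:121145893-121146192, + strand: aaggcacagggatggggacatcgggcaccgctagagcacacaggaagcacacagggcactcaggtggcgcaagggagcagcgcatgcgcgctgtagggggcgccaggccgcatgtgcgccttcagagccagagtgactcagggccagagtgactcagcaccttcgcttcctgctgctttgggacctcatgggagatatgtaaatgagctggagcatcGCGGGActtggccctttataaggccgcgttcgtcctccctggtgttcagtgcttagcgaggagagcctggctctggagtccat

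Ddx4, chr13:112652261-112652560, - strand: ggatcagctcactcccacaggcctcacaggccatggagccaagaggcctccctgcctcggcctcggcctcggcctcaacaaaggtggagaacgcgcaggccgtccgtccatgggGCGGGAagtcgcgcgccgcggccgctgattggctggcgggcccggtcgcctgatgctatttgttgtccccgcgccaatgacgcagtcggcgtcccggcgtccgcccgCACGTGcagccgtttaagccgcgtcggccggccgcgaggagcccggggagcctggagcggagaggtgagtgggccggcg

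The Tex19.1 promoter holds TCCCGC once, read on the opposite strand, and the Ddx4 promoter holds TCCCGC and CACGTG once each. Of 22 germ cell genes with a promoter sequence, 11 (50%) held CACGTG and 9 (40.9%) held TCCCGC, against 8.09% and 22% of all 27025 promoters of this length. Over the gene lists the share with TCCCGC ran from 0% (macrophage and blood) to 60% (DNA methylation), so TCCCGC does not set the germ cell list apart. The median CpG count was 20.5 in the germ cell list and 8 over all promoters. Over the gene lists that median ran from 3 (2-cell stage) to 30 (polycomb and chromatin), so the CpG count does not set the germ cell list apart either. The POU octamer ATGCAAAT was in 0 of the 22 and in 1.97% of all. Among the 11 called lower without NOD-ES 4K, 7 (63.6%) held CACGTG and 4 (36.4%) TCCCGC. Among the 10 tested and not called lower the shares were 40% and 40%. A match describes the letters and not a bound site.

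Of 26 germ cell genes tested, 1 was higher and 15 lower in the iPS line, with a median difference of -3.16 (-2.43 with genes at their bound). Of the same germ cell genes, 2 were higher and 15 lower without NOD-ES 4K, with a median of -2.77 (-2.10 at the bound). Tex19.1, which protects germ cells and ES cells from retrotransposons, read -4.23 (dim) and -4.05 (dim) in the iPS line and 5.42, 5.55 and 5.60 in NOD ES, with a narrow spread in both groups. Tex19.1 was at least 756-fold lower (adjusted p = 2.57e-10), or at least 784-fold without NOD-ES 4K (adjusted p = 1.92e-09). Ddx4 (Vasa), a germ line RNA helicase, read -6.25 (dim) and -5.34 (dim) in the iPS line and 1.14, 0.77 and 0.93 in NOD ES. Ddx4 was at least 38.5-fold lower (adjusted p = 2.51e-05), or at least 36-fold without NOD-ES 4K (adjusted p = 6.72e-05). Dppa3 (Stella), a maternal factor that protects imprints, read -6.36 (dim) and -5.62 (dim) in the iPS line and 3.29, 0.90 and 0.73 in NOD ES. Dppa3 was at least 62.3-fold lower (adjusted p = 0.000153), or at least 35.2-fold without NOD-ES 4K (adjusted p = 0.00024). The translation regulator Dazl was at least 10.6-fold lower (adjusted p = 0.000182), or at least 14.9-fold without NOD-ES 4K (adjusted p = 0.000107). The synaptonemal complex gene Sycp3 was at least 14-fold lower (adjusted p = 0.000426), or at least 13.8-fold without NOD-ES 4K (adjusted p = 0.000998). Both were dim on NOD-ES 4K too.

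Primed epiblast genes did not move as 1 group, and the leading EpiSC markers were low in the iPS line. Of 28 primed markers tested, 9 were higher and 6 lower in the iPS line, with a median difference of 0.64 (0.53 with genes at their bound). Of the same primed markers, 12 were higher and 5 lower without NOD-ES 4K, with a median of 0.91. Fgf5, the standard marker of primed epiblast, read -2.19 and -2.12 in the iPS line and -2.45 (dim), -3.25 and -3.22 in NOD ES. Its difference was 0.82 ± 0.36 (adjusted p = 0.108), or 1.08 ± 0.34 (adjusted p = 0.0282) without NOD-ES 4K. The same probe read 3.02 and 3.00 in EpiSC and -6.60 (dim) and -6.82 (dim) in mESM, so the iPS level lay far below that of EpiSC. Brachyury (T), of the primitive streak, read -4.57 and -3.38 in the iPS line and -2.48 (dim), -3.50 and -3.59 in NOD ES. Its difference was -0.79 ± 0.38 (adjusted p = 0.142), or -0.43 (adjusted p = 0.319) without NOD-ES 4K. In EpiSC the level of T was 1.66 and 1.63. Otx2, of anterior epiblast, read -0.07 and -0.13 in the iPS line and -2.40 (dim), -0.71 and -0.63 in NOD ES, a difference of 1.15 ± 0.55 (adjusted p = 0.145). The fold for Otx2 was 2.21 with NOD-ES 4K, where it was dim, and 1.48 without that array. Pou3f1 (Oct6) stood at -0.46 ± 0.29 (adjusted p = 0.273). Eomes, another streak gene, was at least 6-fold lower (adjusted p = 0.000757), or at least 7.41-fold without NOD-ES 4K (adjusted p = 0.00032). With 1 array left out, the test was passed for T without the passage 12 array (-1.38, adjusted p = 0.0299). With a further array left out beside NOD-ES 4K, the test was lost for Fgf5 without any 1 of the remaining arrays (1.04 to 1.12, adjusted p between 0.0725 and 0.108). Eomes was not called in the deposited value table or with normexp on a capped background. The number of primed markers higher was 4 without the passage 7 array and 5 without the passage 12 array, NOD ES 43 KP/CH or NOD ES 85 KP. Primed markers called lower numbered 3 with slide as a fixed block, with or without NOD-ES 4K.

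Several primed genes were higher. Foxa2, of endoderm and node, read 2.83 and 2.63 in the iPS line and -2.45 (dim), -2.41 and -2.31 in NOD ES. It rose by 5.12 ± 0.47 (adjusted p = 1.43e-05), or rose by 5.09 ± 0.53 (adjusted p = 3.53e-05) without NOD-ES 4K. Sox11, a factor of primed epiblast and neural progenitors, read 1.64 and 1.52 in the iPS line and -0.21 (dim), -1.19 and -1.12 in NOD ES. It rose by 2.42 ± 0.31 (adjusted p = 0.000118), or rose by 2.73 ± 0.24 (adjusted p = 1.08e-05) without NOD-ES 4K. The activin binder Fst rose by 2.05 ± 0.43. Cdh2 (N-cadherin) rose by 2.76 ± 0.68 on its brightest probe, while another of its probes went the other way. Cer1, a secreted Nodal and WNT antagonist of anterior endoderm, was dim on all NOD ES arrays and read -1.76 and -1.32 in the iPS line, at least 7.02-fold higher (adjusted p = 0.029), or at least 16.7-fold without NOD-ES 4K (adjusted p = 7.88e-07). Nodal, the ligand that keeps epiblast primed, read -1.27 and -0.73 in the iPS line and 2.68, 3.89 and 3.98 in NOD ES. It fell by 4.51 ± 0.41 (adjusted p = 1.24e-05), or fell by 4.93 ± 0.32 (adjusted p = 2.33e-06) without NOD-ES 4K. Lefty2, its feedback inhibitor, fell by 2.47 ± 0.32. The mean over 6 primed markers was -1.49 and -1.15 in the iPS line and -1.35, -1.51 and -1.53 in NOD ES. Eomes was dim on both iPS arrays, and Fgf5, Otx2, Cdh2, T and Eomes were dim on NOD-ES 4K, so its mean is not a measured level. With 1 array left out, the test was lost for Cdh2 without the passage 7 array (2.64, adjusted p = 0.0554) and Cer1 without any 1 of the remaining arrays (2.65 to 3.65, adjusted p between 0.0896 and 0.143). Fst was not called with slide as a fixed block. Cdh2 was not called with slide as a fixed block, as the mean of all probes or with the passages averaged. Cer1 was not called when only the 5 arrays were fitted, in the deposited value table, with normexp on a capped background or with the passages averaged.

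The signalling lists were mixed. Dusp6, Egr1 and Egr2 of the FGF-ERK list, and Egr4 beside them, were lower in the iPS line. FGF-ERK genes gave 2 higher and 8 lower of 21 (median -1.01; without NOD-ES 4K 4 and 11, median -0.55). Dusp6, the ERK phosphatase induced by ERK itself, read 2.42 and 2.29 in the iPS line and 4.33, 4.96 and 4.94 in NOD ES. It fell by 2.39 ± 0.43 (adjusted p = 0.00122), or fell by 2.59 ± 0.45 (adjusted p = 0.00097) without NOD-ES 4K. The immediate early gene Egr1 read 0.56 and 0.08 in the iPS line and 3.15, 2.86 and 3.13 in NOD ES. It fell by 2.73 ± 0.26 (adjusted p = 1.87e-05), or fell by 2.67 ± 0.28 (adjusted p = 3.57e-05) without NOD-ES 4K. Egr2 fell by 2.58 ± 0.25 and Egr4 fell by 3.01 ± 0.29. In each of the 4 the iPS arrays lay below every NOD ES array. The ETS factor Etv5 fell by 2.20 ± 0.27, and the stress-induced Ier3 went the other way and rose by 3.07 ± 0.43. Dusp6 was not called with slide as a fixed block. FGF-ERK genes called lower numbered 4 with slide as a fixed block, with or without NOD-ES 4K.

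Nodal pathway genes gave 5 higher and 5 lower of 19 (median -0.15; without NOD-ES 4K 6 and 6, median 0.09). Among the ligands Gdf3 was at least 62.7-fold lower (adjusted p = 2.98e-06), or at least 67.4-fold without NOD-ES 4K (adjusted p = 7.39e-06). Gdf1 rose by 2.97 ± 0.39. LIF-STAT3 genes gave 4 higher and 6 lower of 17 (median -0.48; without NOD-ES 4K 4 and 7, median -0.86). Socs2, a feedback inhibitor of cytokine receptors, fell by 2.82 ± 0.26. WNT genes gave 5 higher and 7 lower of 25 (median -0.32, 0.00 at the bound; without NOD-ES 4K 7 and 6, median 0.03, 0.00 at the bound). Axin2, the general WNT target, read -3.32 and -4.12 (dim) in the iPS line and -2.42 (dim), -0.66 and -0.78 in NOD ES. It fell by 2.44 ± 0.47. The nuclear effector Tcf7 fell by 2.21 ± 0.42, and the receptor Fzd2 rose by 2.49 ± 0.57. BMP genes gave 5 higher and 1 lower of 20 (median 0.77; without NOD-ES 4K 8 and 1, median 0.94). Gdf1 and Fzd2 were not called with slide as a fixed block. Axin2 was not called when only the 5 arrays were fitted or after quantile normalization. Tcf7 was not called when only the 5 arrays were fitted. The number of Nodal genes higher was 3 without any 1 other array. The number of LIF-STAT3 genes lower was 3 without the passage 12 array. The number of WNT genes higher was 2 without the passage 7 array or NOD ES 85 KP and 3 without the passage 12 array or NOD ES 43 KP/CH. The number of WNT genes lower was 4 without the passage 7 array or the passage 12 array. The number of BMP genes higher was 2 without the passage 7 array and 3 without NOD ES 43 KP/CH or NOD ES 85 KP. Among genes called with NOD-ES 4K left out, LIF-STAT3 genes higher numbered 2 without NOD ES 43 KP/CH or NOD ES 85 KP. Among genes called with NOD-ES 4K left out, WNT genes higher numbered 4 without the passage 7 array. Among genes called with NOD-ES 4K left out, BMP genes higher numbered 4 without the passage 7 array, 1 without NOD ES 43 KP/CH and 2 without NOD ES 85 KP. Nodal genes called higher numbered 1, Nodal genes called lower numbered 3, LIF-STAT3 genes called higher numbered 2, LIF-STAT3 genes called lower numbered 2 and BMP genes called higher numbered 0 with slide as a fixed block, with or without NOD-ES 4K. WNT genes called higher numbered 2 and WNT genes called lower numbered 3 with slide as a fixed block.

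Macrophage genes, which neither ES cells nor EpiSC are known to express at high levels, were among the largest rises in the iPS line. Of 14 macrophage and blood genes tested, 10 were higher and 0 lower in the iPS line, with a median difference of 3.50 (3.29 with genes at their bound). Of the same macrophage and blood genes, 11 were higher and 0 lower without NOD-ES 4K, with a median of 3.73. Adgre1, the classical surface marker of mouse macrophages, read 2.42 and 1.89 in the iPS line and -2.47 (dim), -3.85 and -3.64 in NOD ES. It rose by 5.48 ± 0.44 (adjusted p = 6.15e-06), or rose by 5.90 ± 0.38 (adjusted p = 1.9e-06) without NOD-ES 4K. Tyrobp (DAP12), the signalling adaptor of myeloid receptors, read 2.88 and 2.37 in the iPS line and -2.46 (dim), -5.63 (dim) and -4.24 in NOD ES. It rose by 6.74 ± 0.69 (adjusted p = 2.75e-05), or rose by 7.56 ± 0.46 (adjusted p = 1.43e-06) without NOD-ES 4K. Its partner receptor Trem2 read 5.13 and 5.09 in the iPS line and -0.77 (dim), -3.30 and -2.85 in NOD ES. It rose by 7.42 ± 0.91 (adjusted p = 9.28e-05), or rose by 8.18 ± 0.85 (adjusted p = 3.47e-05) without NOD-ES 4K. Lyz2 (lysozyme M) read 7.74 and 7.48 in the iPS line and 3.23, -0.42 and -0.73 in NOD ES. It rose by 6.91 ± 1.15 (adjusted p = 0.000734), or rose by 8.18 ± 0.89 (adjusted p = 4.5e-05) without NOD-ES 4K. Of NOD ES arrays NOD-ES 4K was the highest for Lyz2, and all NOD ES arrays lay below both passages for these 4 genes. The signal was not particular to line 6, since the same 4 genes were well above background on every array of the EpiSC-like ES line 1. At passages 5, 7, 9 and 10 of that line Lyz2 read 6.97, 7.07, 6.92 and 6.63 and Trem2 1.89, 2.02, 1.57 and 1.38. Adgre1 read 0.28, 0.345, 0.44 and 0.16 there and Tyrobp 0.22, 0.77, 0.03 and 0.65. Lyz2 was not called with slide as a fixed block.

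Ptprc (CD45), the marker of all nucleated blood cells, read -0.75 and -1.40 in the iPS line and -2.41 (dim), -6.50 (dim) and -6.42 (dim) in NOD ES. Ptprc was at least 9.9-fold higher (adjusted p = 0.00869), or at least 23.1-fold without NOD-ES 4K (adjusted p = 1.27e-05). The chemokine gene Pf4 was at least 241-fold higher (adjusted p = 0.000134), or at least 505-fold without NOD-ES 4K (adjusted p = 1.69e-05), and Ccl6 was at least 102-fold higher (adjusted p = 6.51e-05), or at least 209-fold without NOD-ES 4K (adjusted p = 8.44e-06). The factor XIII subunit gene F13a1 was at least 100-fold higher (adjusted p = 5.88e-05), or at least 227-fold without NOD-ES 4K (adjusted p = 1.16e-07). The granule proteoglycan gene Srgn rose by 6.99 ± 0.61 and Cd34 rose by 4.46 ± 0.49. Ptprc, Pf4, Ccl6, F13a1, Srgn and Cd34 were well above background on every array of the EpiSC-like ES line 1 as well. The mean over the 3 defining macrophage markers Ptprc, Cd68 and Csf1r was 1.14 and 0.60 on the iPS arrays. It was -2.20 on NOD-ES 4K, with all 3 dim, and -2.82 and -2.76 on the other NOD ES arrays, with Ptprc dim. Whether blood cells in the culture gave these signals was not tested. With 1 array left out, the test was lost for Ptprc without the passage 7 array (3.71, adjusted p = 0.065). Ptprc was not called when only the 5 arrays were fitted, as the mean of all probes or with the passages averaged.

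Endoderm genes of the early embryo rose as well. Of 20 primitive and visceral endoderm genes tested, 13 were higher and 0 lower in the iPS line, with a median difference of 2.97. Of the same primitive and visceral endoderm genes, 14 were higher and 0 lower without NOD-ES 4K, with a median of 3.11. Afp, the fetal serum protein made by visceral endoderm and liver, read 2.49 and 2.30 in the iPS line and -2.52 (dim), -6.54 (dim) and -6.59 (dim) in NOD ES. Afp was at least 110-fold higher (adjusted p = 9.63e-05), or at least 256-fold without NOD-ES 4K (adjusted p = 2.73e-08). Rbp4, the retinol carrier of the same tissues, read 4.92 and 4.84 in the iPS line and -1.89 (dim), -1.55 and -0.95 in NOD ES. It rose by 6.34 ± 0.26 (adjusted p = 1.26e-07), or rose by 6.13 ± 0.23 (adjusted p = 1.29e-07) without NOD-ES 4K. The endoderm factor Sox17 read 1.52 and 1.35 in the iPS line and -0.05, -3.71 and -3.62 in NOD ES. It rose by 3.89 ± 0.83 (adjusted p = 0.00362), or rose by 5.10 ± 0.20 (adjusted p = 1.39e-07) without NOD-ES 4K. Gata6, which specifies primitive endoderm, rose by 3.00 ± 0.41, and the receptor gene Pdgfra rose by 4.19 ± 0.69 (5.02 ± 0.46 without NOD-ES 4K). Both iPS arrays lay above all NOD ES arrays for these 5 genes. Afp was dim on all 3 NOD ES arrays, and NOD-ES 4K was the highest of them for Sox17. Gata6 was not called with slide as a fixed block. Sox17 was not called when only the 5 arrays were fitted. Endoderm genes called higher numbered 8 with slide as a fixed block, with or without NOD-ES 4K.

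Some genes of the basement membrane, which parietal endoderm makes in bulk, were higher too. The collagen IV chain Col4a1 rose by 4.90 ± 0.67. The laminin chain Lama1 read 4.35 and 3.36 in the iPS line and -0.16 (dim), 0.54 and 0.46 in NOD ES. It rose by 3.57 ± 0.31 (adjusted p = 8.95e-06), or rose by 3.35 ± 0.29 (adjusted p = 1.08e-05) without NOD-ES 4K, and Lamb1 rose by 4.05 ± 0.36. Integrins and laminins gave 8 higher and 0 lower of 16 (median 1.37; without NOD-ES 4K 9 and 0, median 1.56, 1.42 at the bound). The mean over 4 visceral endoderm markers was -0.01 and -0.14 on the iPS arrays, with Ttr dim, against -2.30, -4.79 and -4.58 in NOD ES. All 4 were dim on NOD-ES 4K, and Afp and Ttr on the other NOD ES arrays. Over 6 primitive endoderm markers it was -0.53 and -0.54 against -2.01, -3.69 and -3.55, with 5 dim on NOD-ES 4K and Sox7 on NOD ES 43 KP/CH. Their part in the other differences was not tested. Col4a1 was not called with slide as a fixed block. The number of integrin and laminin genes higher was 5 without the passage 7 array or the passage 12 array. Integrin and laminin genes called higher numbered 3 with slide as a fixed block, with or without NOD-ES 4K.

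By fitted difference, the largest rise of any named gene was that of a secretory granule gene, and glial genes rose with it. Of 20 glial and secretory granule genes tested, 14 were higher and 0 lower in the iPS line, with a median difference of 4.35. Of the same glial and secretory granule genes, 14 were higher and 0 lower without NOD-ES 4K, with a median of 4.78 (4.67 at the bound). This list was assembled from genes that led earlier comparisons of these arrays, so its direction is not independent evidence. Chgb (chromogranin B), a core protein of secretory granules, read 5.79 and 5.77 in the iPS line and -2.40 (dim), -3.69 and -3.58 in NOD ES. It rose by 9.0 ± 0.40 (adjusted p = 2.18e-07), or rose by 9.41 ± 0.31 (adjusted p = 5.5e-08) without NOD-ES 4K. Chgb depended on the probe. Its other probe averaged -6.075 in the iPS line and -5.261 in NOD ES, a difference of -0.815. Scg5, a granule chaperone, was at least 106-fold higher (adjusted p = 0.000109), or at least 248-fold without NOD-ES 4K (adjusted p = 2.73e-08). Mlc1, a membrane protein of astrocytes, read 2.66 and 2.54 in the iPS line and -2.60 (dim), -6.06 (dim) and -5.51 (dim) in NOD ES. Mlc1 was at least 123-fold higher (adjusted p = 3.11e-05), or at least 282-fold without NOD-ES 4K (adjusted p = 8.28e-08). Fabp7, the fatty acid binder of radial glia, read 2.73 and 2.61 in the iPS line and -2.58 (dim), -4.49 (dim) and -4.12 in NOD ES. It rose by 6.40 ± 0.47 (adjusted p = 3.42e-06), or rose by 6.98 ± 0.30 (adjusted p = 2.59e-07) without NOD-ES 4K. For these 4 genes NOD-ES 4K was dim and the groups did not overlap. The gastric gene Gkn2, in the same list, was at least 157-fold higher (adjusted p = 1.74e-06), or at least 280-fold without NOD-ES 4K (adjusted p = 4.61e-08). In the EpiSC-like ES line 1 Gkn2 was high too, at 3.68, 3.96, 3.65 and 3.48 at passages 5, 7, 9 and 10.

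Neuroectoderm genes changed less evenly, with 7 higher and 3 lower of 20 (median 0.76; without NOD-ES 4K 9 and 2, median 0.93). Stmn4, a neuronal tubulin regulator, read 6.74 and 6.94 in the iPS line and 1.45, -1.24 and -0.91 in NOD ES. It rose by 7.08 ± 0.74 (adjusted p = 3.17e-05), or rose by 7.92 ± 0.53 (adjusted p = 2.69e-06) without NOD-ES 4K. The neural plate factor Zic1 rose by 4.96 ± 0.53, the dendritic Map2 rose by 3.84 ± 0.51 (4.43 ± 0.36 without NOD-ES 4K) and the migration gene Dcx rose by 3.54 ± 0.57 (4.14 ± 0.45 without NOD-ES 4K). The differences given here are all rises, and none is given for the neuroectoderm genes called lower. The mean over 4 neural markers was -0.41 and -0.30 in the iPS line and -1.03, -2.08 and -2.23 in NOD ES, with Sox1, Pax6 and Map2 dim on NOD-ES 4K.

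**Figure D3:**
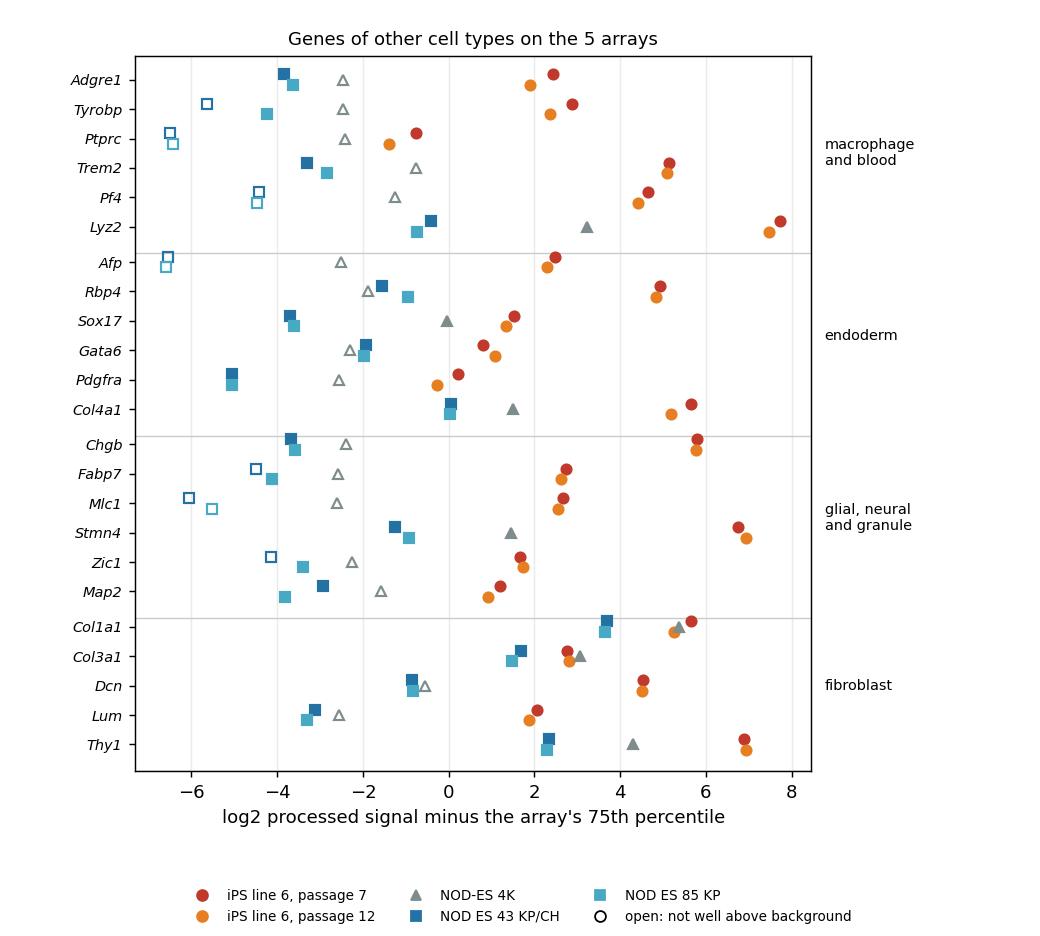
Levels of 23 genes of other cell types on the 5 arrays (log2 processed signal minus the 75th percentile of the array), grouped into macrophage and blood, endoderm, glial and neural, and fibroblast genes. Circles are iPS line 6, the triangle is NOD-ES 4K, squares are the other NOD ES arrays, and open symbols are spots not well above background. All but Col1a1 and Col3a1 separate the iPS arrays to the right of the NOD ES arrays, as for Adgre1 (1.89 and 2.42 against -2.47 and below).

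Fibroblast genes were also higher, although the collagen genes Col1a1 and Col3a1 were not called. Of 25 fibroblast genes tested, 12 were higher and 0 lower in the iPS line, with a median difference of 2.06. Of the same fibroblast genes, 16 were higher and 0 lower without NOD-ES 4K, with a median of 2.39. The matrix proteoglycan Dcn read 4.54 and 4.50 in the iPS line and -0.54 (dim), -0.85 and -0.83 in NOD ES. It rose by 5.26 ± 0.78 (adjusted p = 0.000338), or rose by 5.36 ± 0.89 (adjusted p = 0.000679) without NOD-ES 4K. Lum, of the same family, read 2.07 and 1.87 in the iPS line and -2.56 (dim), -3.12 and -3.31 in NOD ES. It rose by 4.97 ± 0.70 (adjusted p = 0.00023), or rose by 5.19 ± 0.77 (adjusted p = 0.000348) without NOD-ES 4K. The surface glycoprotein Thy1 read 6.88 and 6.93 in the iPS line and 4.29, 2.35 and 2.30 in NOD ES. It rose by 3.92 ± 0.87 (adjusted p = 0.0045), or rose by 4.58 ± 0.85 (adjusted p = 0.00142) without NOD-ES 4K. NOD-ES 4K lay nearest to the iPS line for each of the 3, although it was dim for Dcn and Lum. Vim (vimentin) rose by 2.88 ± 0.40, the gelatinase Mmp2 rose by 3.50 ± 0.40 and the matricellular Thbs2 rose by 3.18 ± 0.72. By contrast, Col1a1 read 5.66 and 5.24 in the iPS line and 5.37, 3.70 and 3.64 in NOD ES, a difference of 1.22 ± 0.77 (adjusted p = 0.274). Col3a1 stood at 0.71 ± 0.56 (adjusted p = 0.394) and Postn at 0.25 ± 0.67 (adjusted p = 0.818). Dcn, Lum, Thy1, Vim and Thbs2 were not called with slide as a fixed block.

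With slide as a fixed block 1 fibroblast gene and 0 mesenchymal genes were called, at medians of 2.23 and 2.16. The mean fibroblast marker level was 3.87 and 3.68 on the iPS arrays against 2.46, 1.14 and 1.04 in NOD ES, with Dcn and Lum dim on NOD-ES 4K. Harvest differed between the groups in the step that removes feeder cells, and harvest and group cannot be told apart. Mesenchymal transition factors gave 7 higher and 0 lower of 12 (median 2.35; without NOD-ES 4K 7 and 1, median 2.57). Twist1 rose by 2.83 ± 0.52 and Snai2 rose by 2.90 ± 0.60, while the epithelial cadherin Cdh1 read 0.88 and 0.39 in the iPS line and 2.45, 4.18 and 4.18 in NOD ES. It fell by 2.97 ± 0.64 (adjusted p = 0.00369), or fell by 3.54 ± 0.57 (adjusted p = 0.000567) without NOD-ES 4K. The keratin Krt19, of simple epithelia, rose by 2.99 ± 0.21. Twist1, Snai2 and Cdh1 were not called with slide as a fixed block. The number of mesenchymal transition genes higher was 4 without the passage 7 array.

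Antigen presentation genes, which ES cells keep low, were higher in the iPS line. Of 20 antigen presentation genes tested, 12 were higher and 0 lower in the iPS line, with a median difference of 2.03. Of the same antigen presentation genes, 12 were higher and 0 lower without NOD-ES 4K, with a median of 2.33. B2m, the light chain of class I molecules, read 5.96 and 5.34 in the iPS line and 1.21, 0.18 and 0.19 in NOD ES. It rose by 5.12 ± 0.49 (adjusted p = 1.86e-05), or rose by 5.46 ± 0.49 (adjusted p = 1.33e-05) without NOD-ES 4K. The class I heavy chain gene H2-K1 read 6.60 and 6.18 in the iPS line and 2.66, 1.23 and 1.28 in NOD ES. It rose by 4.67 ± 0.52 (adjusted p = 5.04e-05), or rose by 5.14 ± 0.47 (adjusted p = 1.5e-05) without NOD-ES 4K. The nonclassical H2-T23 rose by 3.52 ± 0.56 and the immunoproteasome subunit gene Psmb8 rose by 4.07 ± 0.70. Probes of class I genes can share sequence, so single members are uncertain. Interferon response genes gave 9 higher and 1 lower of 22 (median 1.15; without NOD-ES 4K 11 and 3, median 1.35, 1.33 at the bound). Ifi27 rose by 3.35 ± 0.78, whereas Ifitm1, which early germ cells also express, fell by 2.23 ± 0.43. The macrophage markers above moved with these genes, and their part was not tested. H2-T23, Psmb8 and Ifi27 were not called with slide as a fixed block. Ifitm1 was not called when only the 5 arrays were fitted. The number of interferon genes higher was 3 without the passage 7 array and 4 without the passage 12 array. Antigen presentation genes called higher numbered 6 and interferon genes called higher numbered 3 with slide as a fixed block, with or without NOD-ES 4K.

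Replication, one-carbon metabolism and chromatin genes that are high in rapidly dividing ES cells were lower. Of 24 cell cycle and replication genes tested, 3 were higher and 18 lower in the iPS line, with a median difference of -2.15. Of the same cell cycle and replication genes, 2 were higher and 20 lower without NOD-ES 4K, with a median of -2.17. Mcm5, of the replicative helicase, read 1.15 and 0.73 in the iPS line and 4.59, 5.24 and 5.32 in NOD ES. It fell by 4.11 ± 0.25 (adjusted p = 1.28e-06), or fell by 4.34 ± 0.21 (adjusted p = 4.71e-07) without NOD-ES 4K. Its partners Mcm2 and Mcm6 fell by 4.12 ± 0.35 and 3.58 ± 0.21. The cell cycle inhibitors moved up. Cdkn1a (p21) rose by 2.65 ± 0.43 and Cdkn2a, which encodes p16 and p19, rose by 3.34 ± 0.36. The p53 pathway gave 5 higher and 3 lower of 17 (median 0.80; without NOD-ES 4K 7 and 3, median 0.81), with the death receptor gene Fas among the higher (4.36 ± 0.41). Cdkn1a was not called with slide as a fixed block. p53 genes called higher numbered 3 with slide as a fixed block, with or without NOD-ES 4K.

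Of 16 threonine and one-carbon genes tested, 0 were higher and 15 lower in the iPS line, with a median difference of -2.38. Of the same threonine and one-carbon genes, 0 were higher and 15 lower without NOD-ES 4K, with a median of -2.49. Gldc, of the glycine cleavage system, read -2.18 and -2.18 in the iPS line and 2.87, 3.08 and 3.15 in NOD ES. It fell by 5.22 ± 0.20 (adjusted p = 8.13e-08), or fell by 5.30 ± 0.20 (adjusted p = 1.29e-07) without NOD-ES 4K. Shmt1 fell by 4.71 ± 0.34, Mthfd1 fell by 3.64 ± 0.31, and Gcat, which takes up the product of Tdh, fell by 4.05 ± 0.32. Another Shmt1 probe differed by only -0.45. Polycomb and chromatin genes gave 1 higher and 15 lower of 22 (median -1.89; without NOD-ES 4K 1 and 16, median -1.97). The deacetylase Hdac1 fell by 3.30 ± 0.24, the polycomb subunits Phc1 and Cbx7 fell by 3.34 ± 0.20 and 3.55 ± 0.30, and the corepressor Trim28 fell by 2.93 ± 0.32. One-carbon genes called lower numbered 9 with slide as a fixed block, with or without NOD-ES 4K.

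DNA methylation genes gave 0 higher and 6 lower of 12 (median -1.09; without NOD-ES 4K 0 and 6, median -1.38). Dnmt3l, the catalytically inactive cofactor of de novo methylation, read -1.87 and -1.06 in the iPS line and 6.75, 5.99 and 6.02 in NOD ES. It fell by 7.72 ± 0.36 (adjusted p = 2.63e-07), or fell by 7.47 ± 0.35 (adjusted p = 4.69e-07) without NOD-ES 4K. The de novo enzyme Dnmt3b, which EpiSC keep, read -2.41 and -2.55 in the iPS line and 2.22, 1.72 and 1.58 in NOD ES. It fell by 4.32 ± 0.33 (adjusted p = 4.37e-06), or fell by 4.13 ± 0.34 (adjusted p = 7.73e-06) without NOD-ES 4K. The maintenance pair Uhrf1 and Dnmt1 fell by 4.01 ± 0.23 and 1.84 ± 0.31, and the oxidase Tet1 fell by 2.01 ± 0.38. Glycolysis genes gave 10 higher and 2 lower of 21 (median 0.74; without NOD-ES 4K 10 and 4, median 0.40). The neuronal enolase Eno2 read 4.47 and 4.37 in the iPS line and -1.42 (dim), -2.83 and -2.66 in NOD ES. It rose by 6.72 ± 0.57 (adjusted p = 8.76e-06), or rose by 7.16 ± 0.55 (adjusted p = 5.64e-06) without NOD-ES 4K, Tpi1 rose by 1.92 ± 0.23 and the lactate exporter Slc16a3 rose by 1.52 ± 0.29. Slc16a3 was not called with slide as a fixed block. The number of glycolysis genes higher was 5 without the passage 7 array and 6 without the passage 12 array. Among genes called with NOD-ES 4K left out, glycolysis genes higher numbered 6 without NOD ES 43 KP/CH or NOD ES 85 KP. Glycolysis genes called higher numbered 2 with slide as a fixed block, with or without NOD-ES 4K.

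Imprinted genes were higher on balance, and NOD ES arrays were not alike at 1 imprinted cluster. Of 23 imprinted genes tested, 10 were higher and 2 lower in the iPS line, with a median difference of 1.95 (1.62 with genes at their bound). Of the same imprinted genes, 14 were higher and 3 lower without NOD-ES 4K, with a median of 2.11. H19, the maternally expressed noncoding RNA, read 5.30 and 5.13 in the iPS line and -0.61 (dim), -1.03 and -0.86 in NOD ES. It rose by 6.05 ± 0.58 (adjusted p = 1.87e-05), or rose by 6.16 ± 0.65 (adjusted p = 3.94e-05) without NOD-ES 4K. Its paternally expressed neighbour Igf2 rose by 4.48 ± 0.57. Dlk1 read 5.51 and 5.05 in the iPS line and 0.06, -2.96 and -2.83 in NOD ES. It rose by 7.19 ± 0.99 (adjusted p = 0.000211), or rose by 8.17 ± 0.85 (adjusted p = 3.41e-05) without NOD-ES 4K. Meg3, the noncoding RNA expressed from the maternal copy of the Dlk1 region, read 6.38 and 6.16 in the iPS line and 6.83, 1.71 and 0.81 in NOD ES. Here NOD-ES 4K was at the iPS level and the other NOD ES arrays were low, so the difference was 3.15 ± 1.71 (adjusted p = 0.198) with it and 5.01 ± 1.35 (adjusted p = 0.0121) without it. Rian, from the same cluster, stood at 3.24 ± 2.43 (adjusted p = 0.363) and 6.23 ± 1.58 (adjusted p = 0.00886). With a further array left out beside NOD-ES 4K, the test was lost for Meg3 without the passage 7 array (4.90, adjusted p = 0.0517) and NOD ES 85 KP (4.56, adjusted p = 0.0721) and Rian without NOD ES 85 KP (4.93, adjusted p = 0.0774). Igf2 was not called with slide as a fixed block. Imprinted genes called higher numbered 6 with slide as a fixed block, with or without NOD-ES 4K.

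Genes of the sex chromosomes differed too. Xist, the RNA that coats an inactive X, read 1.33 and 1.36 in the iPS line and -2.30 (dim), -5.07 (dim) and -4.84 (dim) in NOD ES. It rose by 5.41 ± 0.69 (adjusted p = 0.000123), or rose by 6.30 ± 0.40 (adjusted p = 1.81e-06) without NOD-ES 4K, a size set by dim NOD ES spots of this probe, while another Xist probe was above background there. The differences of the 4 Xist probes ran from 0.454 to 5.415, and the smallest was that of the probe with the highest mean in NOD ES (-2.59). Tsix, transcribed against Xist, fell by 2.54 ± 0.55, and probes of overlapping transcripts may not keep the strands apart. The Y-linked Eif2s3y read -0.66 and -0.99 in the iPS line and 1.39, -3.15 and -4.74 (dim) in NOD ES, so that 1 NOD ES array lay above the iPS line and the other two below it, and its difference was 1.34 ± 1.41 (adjusted p = 0.53) with all arrays and 3.12 ± 0.85 (adjusted p = 0.0132) without NOD-ES 4K. Ddx3y stood at 0.95 ± 1.38 (adjusted p = 0.662) and 2.66 ± 0.87 (adjusted p = 0.0314). Hox genes, which pattern the body axis, gave 2 higher and 1 lower of 23 (median 0.70, 0.51 at the bound; without NOD-ES 4K 8 and 1, median 1.34, 1.28 at the bound). Hoxb2 read -0.09 and -0.77 in the iPS line and 0.59, -4.44 (dim) and -4.96 (dim) in NOD ES, a difference of 2.50 ± 1.27 (adjusted p = 0.167), or 4.27 ± 0.54 (adjusted p = 0.000113) without NOD-ES 4K. The let-7 antagonist Lin28b fell by 3.30 ± 0.25, and the slow myosin Myh7, of heart and muscle, rose by 5.08 ± 0.53. With a further array left out beside NOD-ES 4K, the test was lost for Ddx3y without any 1 of the remaining arrays (2.17 to 3.15, adjusted p between 0.0527 and 0.144) and Eif2s3y without the passage 7 array (2.96, adjusted p = 0.0602) and NOD ES 85 KP (2.33, adjusted p = 0.112). Myh7 was not called with slide as a fixed block. Among genes called with NOD-ES 4K left out, Hox genes higher numbered 5 without the passage 12 array or NOD ES 85 KP and 4 without NOD ES 43 KP/CH.

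The iPS contrast was then set against a reference contrast from other strains, EpiSC minus 129 ES mESM, and the difference between the contrasts was tested. A difference between contrasts is the iPS contrast minus the EpiSC contrast. EpiSC minus mESM called 5595 genes (24.2%) by itself. Called both there and in the iPS contrast without NOD-ES 4K were 3682 genes, most of them in the same direction. Of these, 1769 rose in both contrasts and 1479 fell in both. A further 202 rose in the iPS contrast and fell in EpiSC, and 232 did the reverse. A total of 4004 genes differed between the contrasts (17.3%), 1789 higher (7.72%) and 2215 lower (9.56%) in the iPS contrast, with a median of 0.11. Higher genes were 44.7% of those called, against 57.8% with normexp on a capped background and 55% when scaled on probes well above background on all arrays. The number was 6320 without NOD-ES 4K, and with the passage 12 array, an EpiSC array or an mESM array left out it lay between 1910 and 2356. Of 28 primed markers 0 were higher and 15 lower in the iPS contrast, and of 25 fibroblast genes 0 and 7. Of 14 macrophage genes 9 were higher and 0 lower, and of 20 endoderm genes 9 and 0. Of 27 naive markers 2 were higher and 2 lower. Where a group was dim, the size of a difference is not measured on that side. Between the contrasts, endoderm genes higher numbered 5 without the passage 12 array or any 1 EpiSC or mESM array. Between the contrasts, fibroblast genes lower numbered 4 without the passage 12 array or any 1 EpiSC or mESM array. Primed markers called lower numbered 5, endoderm genes called higher numbered 4 and fibroblast genes called lower numbered 0 between the contrasts with slide as a fixed block.

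Among primed markers, Fgf5 read 3.02 and 3.00 in EpiSC and -6.60 (dim) and -6.82 (dim) in mESM, a difference of 9.72 ± 0.39 (adjusted p = 1.34e-07). The contrasts differed by -8.90 ± 0.53 (adjusted p = 1.23e-05), a size set by dim mESM spots. Without NOD-ES 4K the value was -8.64 ± 0.49 (adjusted p = 6.98e-06). T read 1.66 and 1.63 in EpiSC and -4.31 and -4.17 in mESM and its contrasts differed by -6.67 ± 0.56 (adjusted p = 6e-05). For Cer1 the difference between contrasts was -7.85 ± 1.60 (adjusted p = 0.00701), or -6.29 ± 0.38 (adjusted p = 1.02e-05) without NOD-ES 4K, and for Fst -3.92 ± 0.64 (adjusted p = 0.00217). Egr1 of the FGF-ERK list read 5.61 and 5.64 in EpiSC and -1.15 and -1.11 in mESM and rose by 6.75 ± 0.29 in EpiSC, whereas it fell in the iPS line, a difference of -9.48 ± 0.39 (adjusted p = 5.06e-07). Egr2 differed by -9.26 ± 0.37 (adjusted p = 5.06e-07), Dusp6 by -4.49 ± 0.64 (adjusted p = 0.000934) and Lefty2 by -4.93 ± 0.48 (adjusted p = 0.000125). The WNT target Axin2 rose by 1.70 ± 0.51 in EpiSC, a difference of -4.13 ± 0.69 (adjusted p = 0.00241). The NOD ES mean lay above mESM for Fgf5, T, Egr1, Egr2 and Dusp6. For each of these genes that gap is part of the difference between contrasts. Fst and Dusp6 were not called between the contrasts with slide as a fixed block. Axin2 was not called between the contrasts after quantile normalization.

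Adgre1 of the macrophage list, the blood cell genes Srgn and Pf4, and the laminin genes Lama1 and Lamb1 were higher in the iPS contrast. Adgre1 read -3.94 (dim) and -4.77 in EpiSC and -4.33 and -4.22 in mESM, and the contrasts differed by 5.56 ± 0.66 (adjusted p = 0.000333). Srgn differed by 7.60 ± 0.90 (adjusted p = 0.000334), Pf4 by 7.48 ± 1.52 (adjusted p = 0.00693) and Gkn2 by 7.93 ± 0.73 (adjusted p = 9.1e-05). Without NOD-ES 4K, Pf4 differed by 8.54 ± 1.18 (adjusted p = 0.000652) and Gkn2 by 8.58 ± 0.36 (adjusted p = 1.25e-06). Lama1 read -1.88 and -2.11 in EpiSC and 1.01 and 0.97 in mESM, falling by 2.98 ± 0.34 in EpiSC, and differed by 6.56 ± 0.45 (adjusted p = 2.19e-05). Of 16 integrins and laminins 2 were higher and 0 lower in the iPS contrast, or 5 higher without NOD-ES 4K. Lamb1 differed by 4.06 ± 0.54 (adjusted p = 0.000628) and Rbp4 by 3.67 ± 0.39 (adjusted p = 0.000186). The matrix genes Postn and Col3a1 of the fibroblast list went the other way. NOD ES also read above mESM for both genes, and this gap is part of the difference between contrasts. Mean levels of Postn and Col3a1 were 1.44 and 2.79 in the iPS line and 1.19 and 2.08 in NOD ES. Col3a1 read 4.09 and 4.36 in EpiSC and -2.90 and -2.83 in mESM. Postn read 2.75 and 3.16 in EpiSC and -5.38 (dim) and -5.41 (dim) in mESM and differed by -8.10 ± 0.99 (adjusted p = 0.000398), or -7.50 ± 0.85 (adjusted p = 0.000214) without NOD-ES 4K, and Col3a1 differed by -6.38 ± 0.84 (adjusted p = 0.000604). Among naive, core and germ cell genes, Zfp42 stood at 1.07 ± 1.37 (adjusted p = 0.645), Dppa5a at 0.62 ± 0.32 (adjusted p = 0.205), Dppa4 at 0.37 ± 1.33 (adjusted p = 0.883) and Ddx4 at 0.85 ± 1.00 (adjusted p = 0.612). These SEs leave room for sizeable differences in Zfp42 and Dppa4. Tex19.1 stood at -4.52 ± 0.28 (adjusted p = 1.23e-05), with both iPS arrays dim. Srgn, Pf4, Lamb1, Postn and Col3a1 were not called between the contrasts with slide as a fixed block. Adgre1 was not called between the contrasts as the mean of all probes.

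**Figure D4:**
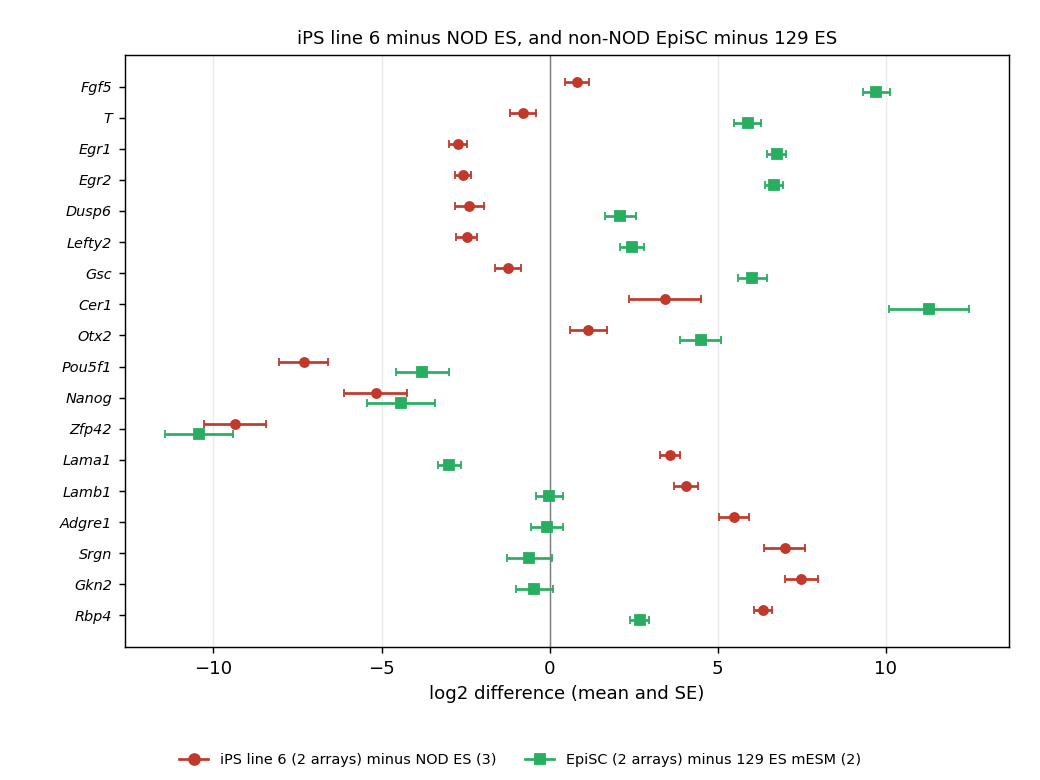
Log2 difference and SE of 18 genes for iPS line 6 minus NOD ES (circles, 2 arrays against 3) and for EpiSC minus 129 ES mESM (squares, 2 arrays each). The contrasts lie far apart for Fgf5 (0.82 and 9.72), Egr1 (-2.73 and 6.75) and Adgre1 (5.48 and -0.08), and close together for Nanog (-5.18 and -4.43). For Fgf5 and Egr1 the NOD ES mean lay above mESM, which is part of the distance between the contrasts.

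The iPS line was last compared with the other NOD line labelled EpiSC-like, ES line 1, with 4 arrays. Levels of that line are given in the order passage 5, 7, 9 and 10. A total of 5942 genes were called (25.6%), 3212 higher (13.9%) and 2730 lower (11.8%) in the iPS line, with a median of 0.27. Higher genes were 54.1% of those called, against 75.2% with normexp on a capped background and 39.7% when scaled on probes well above background on all arrays. Without the passage 12 array 2476 were called and 8544 without NOD-ES 4K, which enters this comparison only through the shared spread. Slide 1 held the passage 7 array of each line, and 5930 of 5932 called genes measured there kept their direction on that slide, which is no independent check because the same arrays made the calls. Of 14 macrophage genes 8 were higher and 0 lower, of 20 endoderm genes 6 and 0, and of 21 glycolysis genes 13 and 0. Of 21 FGF-ERK genes 1 was higher and 11 lower, of 28 primed markers 3 and 9, and of 20 glial genes 3 and 7. Against the EpiSC-like ES line, macrophage genes higher numbered 5 without the passage 7 array, 3 without the passage 12 array and 4 without the EpiSC-like ES passage 5 array. Against the EpiSC-like ES line, FGF-ERK genes lower numbered 7 without the passage 12 array. Macrophage genes called higher numbered 3, endoderm genes called higher numbered 3, glycolysis genes called higher numbered 5 and FGF-ERK genes called lower numbered 6 against the EpiSC-like ES line with slide as a fixed block.

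Afp read -2.67, -2.83, -2.78 and -2.61 in the EpiSC-like ES line against 2.49 and 2.30 in the iPS line, a difference of 5.12 ± 0.89 (adjusted p = 0.00187), or 5.32 within slide 1. Stmn4 read 1.83, 1.92, 1.62 and 1.57 there and differed by 5.11 ± 0.70 (adjusted p = 0.000447), or 4.82 within slide 1. Eno2 differed by 4.06 ± 0.54 (adjusted p = 0.000395), or 4.05 within slide 1 and Krt19 by 2.95 ± 0.20 (adjusted p = 8.4e-06), or 3.01 within slide 1. Egr1 read 5.74, 6.37, 5.63 and 5.81 in that line and 0.56 and 0.08 in the iPS line, and differed by -5.57 ± 0.25 (adjusted p = 7.53e-07), or -5.81 within slide 1. Egr2 differed by -6.43 ± 0.24 (adjusted p = 3.34e-07), or -6.63 within slide 1. Fgf5 read 1.06, 1.31, 1.16 and 0.95 and differed by -3.27 ± 0.34 (adjusted p = 8.01e-05), or -3.50 within slide 1, and T by -3.72 ± 0.36 (adjusted p = 4.96e-05), or -4.26 within slide 1. Dnmt3b differed by -3.26 ± 0.32 (adjusted p = 5.02e-05), or -3.24 within slide 1. Mlc1 read 6.28, 6.48, 6.26 and 5.91, above the iPS line, at -3.63 ± 0.72 (adjusted p = 0.00408), or -3.82 within slide 1, and Fabp7 likewise at -3.14 ± 0.45 (adjusted p = 0.000594), or -3.09 within slide 1. Pou5f1 read -1.37, -1.43, -1.04 and -0.53 and differed by -2.74 ± 0.68 (adjusted p = 0.0135), or -2.92 within slide 1. The naive genes Zfp42, Dppa5a and Tdh were low in both lines. Klf4 was not, reading 5.754, 6.121, 5.601 and 5.585 in the EpiSC-like ES line against 5.784 and 5.777 in mESM. Zfp42 differed by 0.81 ± 0.88 (adjusted p = 0.519), Dppa5a by 0.41 ± 0.20 (adjusted p = 0.154) and Tdh by 0.05 ± 0.43 (adjusted p = 0.952), which does not show that the lines are alike. With 1 array left out, the difference from the EpiSC-like ES line no longer passed for Pou5f1 without the passage 7 array (-2.23, adjusted p = 0.0991). Eno2 was not called against the EpiSC-like ES line with slide as a fixed block. Pou5f1 was not called against the EpiSC-like ES line with slide as a fixed block, with normexp on a capped background or with the passages averaged.

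Between the iPS passages there was 1 array each and so no test. Among 18034 genes well above background on both, 2003 (11.1%) differed by more than 2-fold, 1869 higher at passage 12 and 134 lower, with a median of -0.01. After quantile normalization the split was 1291 higher and 439 lower. In the deposited value table the count was 629 and with a capped background correction 422. The kinase gene Dapk3 read 0.01 and 3.78 at passages 7 and 12, Fam110a 2.17 and 5.11 and the nuclease gene Dnase1l3 -3.63 and -0.10. Ntn5 read -0.17 and -3.10. Few members of the lists above moved. Past 2-fold and higher at passage 12 were 3 of 14 macrophage genes measured on both arrays, 2 of 12 core genes and 0 of 17 WNT genes. Pou5f1 was dim at passage 7 and at -3.32 at passage 12.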

How the data were processed

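Total RNA of 16 samples was hybridised to 1-colour Agilent whole-genome mouse arrays (Cy3). The authors deposited each array's scanner output with spot intensity, per the file headers, and a value table on the log2 scale (medians near 6.93); limma is named in the submitters' processing notes, and the scale and centring of those values are otherwise not given in the sources used here. From 45018 features, 1639 control spots were left out. The main values were log2 of the processed intensity, which was background-corrected before it was deposited, minus the 75th percentile of the array. Spots of a probe were averaged to 41174 gene probes, and 34296 that were well above background on at least 2 arrays were kept. Each of 23167 genes was read from its brightest probe. Probes were named through RefSeq tables by accession (22951), symbol (6659) or older symbol (3109), and 8455 kept the array's name.

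All 16 arrays in 7 groups (15 without NOD-ES 4K) were fitted with lmFit and eBayes (limma 3.58.1, R 4.3.3, data.table version 1.17.8), with Benjamini-Hochberg adjustment at 0.05 over all genes, after a check on simulated data. Every adjusted p given here is from limma. The arrays lay on 6 slides. The number of arrays limits the precision. A bound on a fold sets the bright group's mean against the mean of the higher of each array's lowest signal well above background and the dim probe's own.

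The members and the 37 gene lists were chosen with earlier results of these data known. Genes were named by rule: all members of the lists marked for full naming, up to 6 of each other list with the largest difference without NOD-ES 4K (called ones first), the 15 that rose and the 15 that fell most, and the 8 each way against the EpiSC-like ES line and between passages. The text draws from these. Alternatives changed the background correction, scaling, probe filter, probe choice, slide block, arrays and prior. Normexp on the raw signals could not be fitted usefully, since a few spots of very high local background left the passage 7 iPS array with an interquartile range of 0.03 on the log2 scale. A version that set local backgrounds over 10 times the array's median to that median, called capped here, was added after seeing the data, as was leaving out NOD-ES 4K in the comparisons with EpiSC and with the EpiSC-like ES line.

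Some members of the gene lists are not reported here by name.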

Additional observations from a re-analysis of the deposited data

Results flagged for a closer look

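Genes that moved in opposite directions in the iPS contrast (iPS line 6 minus NOD ES) and in EpiSC minus 129 ES mESM were picked out by the tested difference between the contrasts. Only genes read in the text were searched, and most genes called in both contrasts moved in the same direction. The genes Egr1, Egr2, Egr4 and Dusp6 fell in the iPS line and were higher in EpiSC, with differences of -9.48, -9.26, -7.44 and -4.49 on the log2 scale. The Nodal inhibitor gene Lefty2 and the WNT target Axin2 did the same, at -4.93 and -4.13. The laminin gene Lama1 rose in the iPS line and was lower in EpiSC, at 6.56. For Egr1, Egr2 and Dusp6 the NOD ES mean lay above mESM, and that gap is part of their differences.

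Of 15 genes checked in the 4 arrays of the EpiSC-like ES line, Zfp42 had 1 array apart from the others, passage 10 at -2.63, which was also the only one of the 4 well above background. Chance picks out about 1 in 20 groups of this kind.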

How the results depend on the processing

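No paired analysis was possible because the replicate numbers of these groups were given in accession order and pair no samples. For iPS line 6 minus NOD ES, 7694 called genes became 3725 when only the 5 arrays were fitted and 3782 with slide as a fixed block. With arrays left out singly the count lay between 5400 (without passage 12) and 9637 (without NOD-ES 4K). Without NOD-ES 4K, 9637 became 3777 with slide fixed, and single arrays gave 7170 to 9128. Against the EpiSC-like ES line, 5942 became 11697 without NOD-ES 4K and the array titled iPS_EpiSC 1K, 10410 with normexp on a capped background, 2156 with slide fixed and 2761 with the passages averaged. Single arrays of that comparison gave 2476 to 5191, and leaving out NOD-ES 4K alone gave 8544. For the difference between contrasts, 4004 became 9699 without those 2 doubtful arrays, 6320 without NOD-ES 4K alone, 1157 with slide fixed and 2642 with the passages averaged, and single arrays gave 1910 to 6320. Between passages 2003 (1869 higher) became 1730 (1291 higher) after quantile normalization, 629 in the deposited table and 422 with the capped background. With slide as a random block 7070 and 9368 genes were called with and without NOD-ES 4K. With slide fixed, the iPS contrast rested on the passage 7 array, NOD ES 43 KP/CH and NOD ES 85 KP alone. The cause of these shifts was not tested.

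Of the 135 genes read in these comparisons, 29 lost their call with slide fixed and 9 with the 5 arrays alone, and 1, Klf2, turned, at -2.17 (-2.48 without NOD-ES 4K) as the mean of all probes. The capped background made 29 of 118 called differences over 1.5 times smaller and the deposited table made 14 smaller. The median over all genes moved from -0.04 to 0.25 with the capped background, 0.11 after quantile normalization and 0.20 when scaled on probes well above background on all arrays. Without NOD-ES 4K it moved from 0.21 to 0.40, 0.03 and 0.55 in that order, and to 0 in the deposited table. Of all gene spots 26.3% were well above background on NOD-ES 4K, which limits every fold bound that uses it.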

Other observations

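Lists of other lineages and of other gene groups gave the following counts in the iPS line. Mesendoderm genes gave 9 higher and 3 lower of 18 (median 1.03; without NOD-ES 4K 11 and 3, median 1.35) and muscle genes 4 and 1 of 10 (median 0.86; 5 and 1, median 1.23). The number of muscle genes called higher was 2 without either iPS array. Epithelial genes gave 3 higher and 3 lower of 16 (median -0.27; without NOD-ES 4K 7 and 3, median -0.26), and endothelial genes 2 and 2 of 9 (median 0.80; 4 and 2, median 1.23). Without NOD-ES 4K the 7 higher epithelial genes were 3 without the passage 7 array or NOD ES 43 KP/CH, and 4 without the passage 12 array or NOD ES 85 KP. Trophectoderm genes gave 0 higher and 4 lower of 14 (median -1.17; without NOD-ES 4K 2 and 3, median 0.12). The 4 lower trophectoderm genes were 2 without either iPS array or NOD ES 43 KP/CH, and with NOD-ES 4K left out the 2 higher ones were 0 without any 1 further array. With slide as a fixed block, muscle genes called higher numbered 1 and trophectoderm genes called lower 2. Genes of the let-7 and oncofetal list gave 0 higher and 4 lower of 10 (median -0.91; without NOD-ES 4K 0 and 4, median -0.79). Subunits of cytochrome c oxidase gave 1 higher and 3 lower of 14 (median -0.08; without NOD-ES 4K 1 and 4, median -0.40). Genes of the 2-cell stage gave 0 higher and 2 lower of 6 (median -1.39; without NOD-ES 4K 0 and 1, median -1.08). For X inactivation the counts were 1 higher and 2 lower of 5 (median -0.73; without NOD-ES 4K 1 and 2, median -0.32), and for Y-linked genes 0 and 0 of 7 (median -0.31; 2 and 0, median 0.53).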
